A study of Mus musculus with 13 samples.

Results

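The genes described here are 10 core genes of the transforming growth factor beta (TGF-beta) pathway, namely the ligand genes Tgfb1, Tgfb2 and Tgfb3, the receptor genes Tgfbr1 and Tgfbr2, the transducer gene Smad3, the inhibitory Smad genes Smad6 and Smad7, and the nuclear repressor genes Ski and Skil. They were chosen by name, and peaks were counted in a window that ran from 20 kb before to 20 kb after each gene (mouse build mm10). All 10 are among the 21883 protein-coding genes of the annotation used. The study used ChIP-seq, in which DNA bound by a protein or carrying a histone mark is pulled down with an antibody and sequenced, for H3K27ac (an acetylated histone found at active promoters and enhancers) and for NCoR and SMRT, co-repressors of nuclear receptors. Peaks were deposited for 12 of the 13 libraries, each the only library of its group. H3K27ac was mapped in untreated embryonic stem cells (ESCs, strain C57BL/6J, grown with LIF and the inhibitors CHIR99021 and PD0325901), in untreated mouse embryonic fibroblasts (MEFs, strain C57BL/6J-OG2), and in C57BL/6J-OG2 MEFs given OSKM, the reprogramming factors OCT4, SOX2, KLF4 and MYC, at days 5, 9 and 13. All 6 of those OSKM cultures also received a construct. It was a FLAG control in 3 and, in the other 3, HDAC3-YF, a catalytically inactive form of the histone deacetylase HDAC3. The source names say transfected and the protocol says transduced with virus, so how the constructs were delivered is unclear. NCoR and SMRT were mapped in the ESCs and in OSKM cultures at day 9 for which the labels name no further construct. The input library of the ESCs was not used. The title names NCoR, SMRT and MYC as parts of a barrier to reprogramming. The ESCs and the other cells differ in strain and medium as well as in cell type, and the cultures are bulk samples, so a mark in fewer cells and a weaker mark per cell cannot be told apart.

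TGF-beta ligands bind the type II receptor TGFBR2, which recruits and activates the type I receptor TGFBR1. The active receptor phosphorylates SMAD2 and SMAD3, which enter the nucleus with SMAD4 and switch on target genes, among them genes for matrix proteins in fibroblasts. SMAD6 and SMAD7 hold the pathway back at the receptors. SKI and its relative SKIL (also called SnoN) bind SMADs on DNA and are known partners of the NCoR and SMRT complexes studied here. The pathway keeps fibroblasts mesenchymal, and its inhibition is known to ease reprogramming.

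Upstream sequences are shown for 3 of these genes, as credited to RefSeq (GRCm38.p6, with coordinates equal to those of mm10). RefSeq promoter windows matched 7 of the 10 genes, with 8 windows, since Tgfbr1 has a pair. Tgfb3, Smad7 and Skil had no entry. Each run below is the 250 bases before the start site, 5′ to 3′. Tgfbr1 (chr4:47352972-47353221, plus strand) and Smad3 (chr9:63757995-63758244, minus strand) are shown because a co-repressor peak lay beside the start site. Tgfb2 (chr1:186705990-186706239, minus strand) is shown because it was the sole one of the 7 with a MYC E-box in this stretch. Capitals mark the motifs searched for, and runs without capitals held none of them.
Tgfbr1: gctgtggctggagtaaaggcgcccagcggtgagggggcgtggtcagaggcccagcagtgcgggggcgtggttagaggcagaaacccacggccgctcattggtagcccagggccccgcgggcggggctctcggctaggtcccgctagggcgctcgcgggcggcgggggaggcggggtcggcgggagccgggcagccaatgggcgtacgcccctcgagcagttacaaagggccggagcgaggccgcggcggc
Smad3: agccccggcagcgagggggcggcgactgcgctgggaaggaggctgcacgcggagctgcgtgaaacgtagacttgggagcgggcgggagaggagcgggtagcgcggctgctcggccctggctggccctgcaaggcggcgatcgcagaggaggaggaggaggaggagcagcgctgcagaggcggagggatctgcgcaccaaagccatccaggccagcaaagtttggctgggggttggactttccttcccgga
Tgfb2: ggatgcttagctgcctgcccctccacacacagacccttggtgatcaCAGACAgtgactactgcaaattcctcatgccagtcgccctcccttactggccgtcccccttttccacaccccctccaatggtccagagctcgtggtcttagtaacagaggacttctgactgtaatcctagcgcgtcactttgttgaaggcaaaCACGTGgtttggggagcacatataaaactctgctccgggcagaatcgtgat

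The motifs, read on both strands, were the E-box CACGTG bound by MYC, the SMAD element CAGACA and the AP-1 element TGANTCA, and none of them overlaps another in these runs. The Tgfb2 run held 1 E-box and 1 SMAD element. Of the other 7 windows, 1 held a SMAD element, at the internal start site of Tgfbr1, and none held an E-box. The AP-1 element was in none of the 8 windows. Over all 32851 RefSeq promoter windows, 6.02% held the E-box, 17.1% the SMAD element and 6.75% the AP-1 element in the same 250 bases. A match is a description of the letters and not a binding site.

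The lists differed in length and score, which bears on every count below. The ESC and MEF lists of H3K27ac held 25499 and 26591 peaks, and the OSKM lists held between 14251 (HDAC3-YF at day 13) and 16944 (HDAC3-YF at day 5). Every interval was 200 bp wide. The authors' score reached its ceiling of 200 in 24.4% of ESC and 25.9% of MEF peaks, and in 1.67% to 11.9% of the peaks of the OSKM lists. At the marker genes, 8 ESC genes had 53 H3K27ac peaks in ESCs and 4 in MEFs, and 8 fibroblast genes had 49 in MEFs and 3 in ESCs. These genes were chosen with earlier results of these data known, so their counts are no independent check of the cell type labels. In the OSKM libraries the fibroblast genes held 9 to 21 peaks and the ESC genes 2 to 7, below MEFs and ESCs respectively. Between 1 and 3 of the fibroblast genes had no peak in an OSKM library (Postn had none in any), and between 2 and 6 of the ESC genes had none (Tfcp2l1 had none in any).

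The first comparison asked how acetylation of the pathway genes differs between the starting fibroblasts and pluripotent cells. The 10 genes held 61 H3K27ac peaks in MEFs and 23 in ESCs. Of the 10, 8 had more peaks in MEFs, 2 (Tgfbr1 and Skil) had the same number, and 0 had more in ESCs. Among the 16774 protein-coding genes with a peak in any H3K27ac list, 29.7% had more in MEFs and 36.2% had more in ESCs. The median difference, ESC minus MEF, was -3.5 peaks for the 10 genes and 0 for all genes. Of the 10, 6 were lower in ESCs by 3 or more peaks, against 7.11% of all genes and 7.95% of the 12878 genes whose summed count lay within the range of the members. An H3K27ac peak lay in the window in all 8 lists at 9 of the 10, as it did at 52.8% of all protein-coding genes and 68.8% of those with any peak. With 1 library per cell type there was no test. The 8 genes with more peaks in MEFs were 8 in each of 6 other ways of counting, and none was higher in ESCs in any of them.

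**Figure D1:**
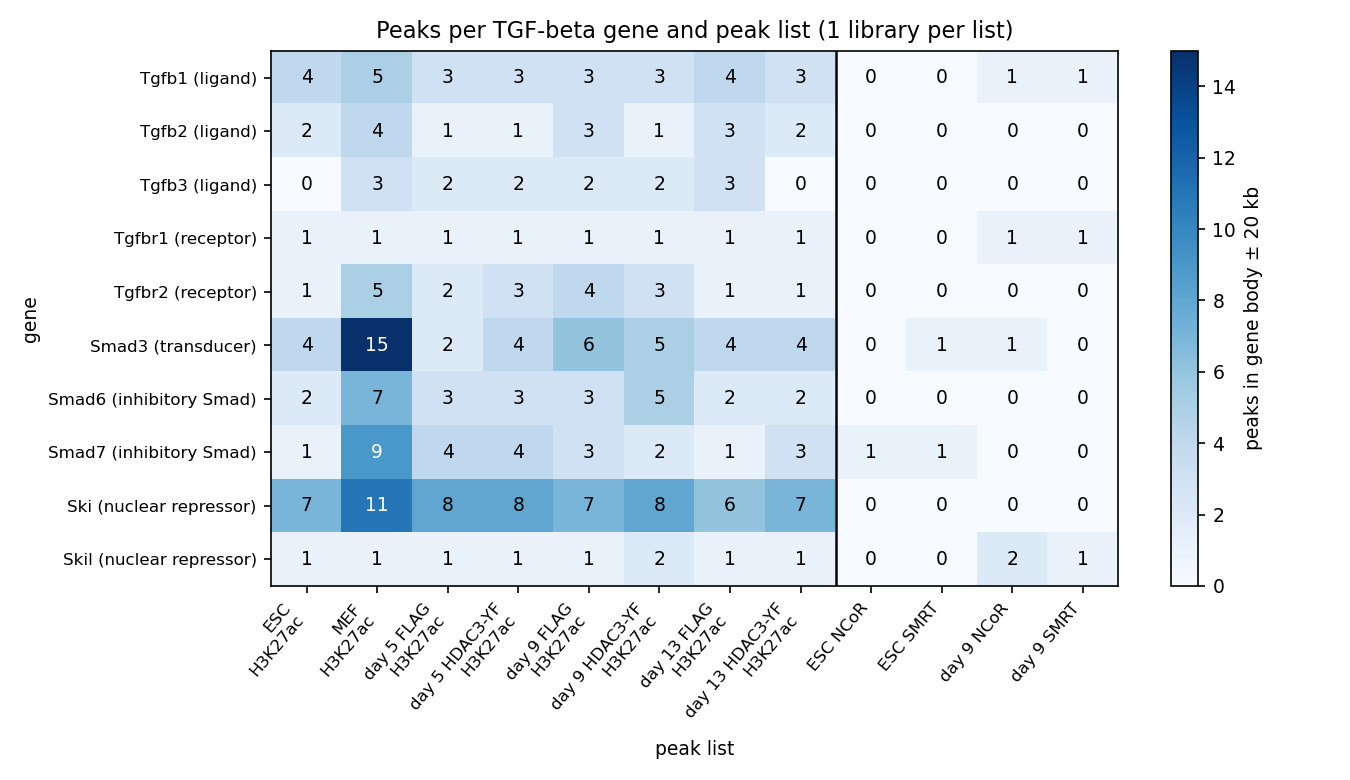
Number of peaks (colour and digit) within 20 kb of the gene, the gene body included, for the 10 TGF-beta genes (rows, with their role) in the 8 H3K27ac lists and, right of the line, the 4 co-repressor lists (columns), 1 library each. Smad3 stands out with 15 peaks in MEFs, Tgfbr1 shows 1 H3K27ac peak in all 8 lists, and co-repressor counts do not exceed 2.

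Smad3 (chr9:63646766-63757994, minus strand), whose SMAD carries the TGF-beta signal to DNA, had the most peaks in MEFs. It had 15 H3K27ac peaks in MEFs and 4 in ESCs. The FLAG cultures had 2, 6 and 4 at days 5, 9 and 13, and the HDAC3-YF cultures 4, 5 and 4. MEFs were thus well above every other library, and in these full lists the 6 OSKM libraries lay on both sides of ESCs. Only 51 of the 16774 genes (0.304%) had an ESC minus MEF difference of -11 or lower. The place of ESCs depended on list length. With equal numbers of the highest-scoring peaks taken from each list, Smad3 had 8 in MEFs and 1 in ESCs. The FLAG cultures then had 2, 4 and 4, and the HDAC3-YF cultures 4, 4 and 4, so all 6 lay above ESCs. With nearby peaks of all lists joined where centres lay within 1 kb, the locus held 19 clusters of peaks, of which 12 had a MEF peak and no ESC peak. Those 12 lay within the gene between 11.3 and 106.4 kb downstream of the start site, and 7 of them had no peak in any OSKM library. The highest-scoring of the 12 was at chr9:63706375-63706772, about 51.3 kb inside the gene, with the ceiling score of 200 in MEFs. The day 9 FLAG and day 5 HDAC3-YF libraries had a peak there, and the other 4 OSKM libraries had none. The cluster at the start site (chr9:63757381-63758467) was acetylated in all 8 lists.

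The inhibitory Smad genes followed the same order. Smad7 (chr18:75367365-75395935), which targets the activated receptor for degradation, had 9 peaks in MEFs and 1 in ESCs. The FLAG cultures had 4, 3 and 1 at the 3 days in turn, and the HDAC3-YF cultures 4, 2 and 3. MEFs were again highest, and the day 13 FLAG library equalled ESCs. Of its 11 clusters 8 had a MEF peak without an ESC peak, 3 of them without a peak in any OSKM library. Of those 3, the cluster 9.5 kb beyond the upper end of the gene (chr18:75405385-75405584) had the ceiling score in MEFs. The cluster at the lower end of the gene (chr18:75367193-75369170) had peaks in all 8 lists.

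Smad6 (chr9:63953076-64022085, minus strand) had 7 peaks in MEFs and 2 in ESCs. It had 3, 3 and 2 with FLAG at days 5, 9 and 13, and 3, 5 and 2 with HDAC3-YF. Its cluster beyond the 3′ end, 79.9 kb from the start site (chr9:63941772-63942271), had a MEF peak at the ceiling score and a peak in all 6 OSKM libraries but none in ESCs. Around the start site itself a peak lay within 1 kb in 6 of the 8 lists. The exceptions were the day 5 FLAG library, with its nearest peak at 50937 bp, and the day 13 HDAC3-YF library, with its nearest at 1336 bp. The latter peak scored 10.6, and the day 13 FLAG peak at 936 bp scored 7.17, so these 2 libraries differ little here.

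The receptor genes differed from each other. Tgfbr2 (chr9:116087695-116175363, minus strand), the ligand-binding receptor, had 5 peaks in MEFs and 1 in ESCs. It had 2, 4 and 1 with FLAG at days 5, 9 and 13, and 3, 3 and 1 with HDAC3-YF. Both day 13 libraries thus equalled ESCs in the full lists. With equal numbers of the highest-scoring peaks, ESCs had 0, both day 13 libraries 1 and the day 9 FLAG library 3. MEFs and the remaining OSKM libraries had 2 each by that count. The peak common to all 8 lists lay 190 to 340 bp from the start site. It carried the ceiling score in MEFs, in both day 5 libraries and in the day 9 FLAG library, 168 in the day 9 HDAC3-YF library, 149 (FLAG) and 84.2 (HDAC3-YF) at day 13, and 26.0 in ESCs. Within its own list 56.0% of peaks scored higher in ESCs, and between 0 and 12.9% did so in the other 7. The other MEF peaks, in clusters 21.4 to 76.0 kb downstream within the gene, had no ESC peak within 1 kb. A cluster 29.9 kb downstream (chr9:116145225-116145572) was marked in both day 5 and both day 9 libraries and in neither MEFs nor ESCs. A MEF peak with a score of 21.8 lay in the next cluster, 28.7 kb downstream. That is just beyond the 1 kb within which peaks were joined, so the absence of MEFs from this cluster depends on that distance.

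Tgfbr1 (chr4:47353222-47414926, plus strand), the kinase that phosphorylates SMAD3, had exactly 1 H3K27ac peak in each of the 8 lists. All of these lay within 348 bp of the start site, and no other protein-coding gene reaches into the window. Its count therefore did not separate any of the libraries.

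Among the ligands, Tgfb3 (chr12:86056743-86079041) differed most. It had 3 peaks in MEFs and 0 in ESCs, and 2, 2 and 3 with FLAG at days 5, 9 and 13 against 2, 2 and 0 with HDAC3-YF. It was the sole member without a peak in ESCs and the sole member without one in the day 13 HDAC3-YF library. The clusters at its upper end (chr12:86078852-86079566) and beyond it (chr12:86082664-86083101) had MEF peaks at the ceiling score and peaks in 5 OSKM libraries. The window also reaches Ttll5 and Ift43, and 8 of its 14 peaks lay nearest to one of these genes. Tgfb2 (chr1:186622787-186709697, minus strand) had 4 peaks in MEFs and 2 in ESCs, 1, 3 and 3 with FLAG, and 1, 1 and 2 with HDAC3-YF. At its start site, beside the sequence shown above, a peak lay within 1 kb in all 8 lists. This start site lies inside the annotated gene, 3.7 kb from its upper end.

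Tgfb1 (chr7:25687002-25705077, plus strand), the most widely expressed of the ligand genes, showed little difference in its window. It had 5 peaks in MEFs, 4 in ESCs, 3, 3 and 4 with FLAG and 3 in each HDAC3-YF library. These counts belong largely to other genes. The window holds 5 other protein-coding genes (Exosc5, Tmem91, B9d2, Ccdc97 and Hnrnpul1), and 27 of its 30 peaks, the co-repressor peaks included, lay nearest to one of them. No H3K27ac peak lay within 1 kb of the Tgfb1 start site in any of the 8 lists, and the nearest was the MEF peak at 1289 bp.

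The nuclear repressor genes differed widely in number of peaks. Ski (chr4:155154075-155222535, minus strand), which blocks transcription by SMAD complexes, had 11 peaks in MEFs and 7 in ESCs. It had 8, 7 and 6 with FLAG and 8, 8 and 7 with HDAC3-YF, the largest count of any member in each of the 7 lists other than MEFs. Of its 13 clusters 6 were marked in both ESCs and MEFs, and 4 of those in all 6 OSKM libraries as well. A further cluster 58.6 kb downstream of the start site (chr4:155163384-155164059) had an ESC peak, no MEF peak and peaks in 5 OSKM libraries, all but day 13 FLAG. It was the sole cluster of the 10 loci with an ESC peak, no MEF peak and any OSKM peak. Of all 62 Ski peaks 9 lay nearest to its neighbour Morn1 and 8 nearest to Faap20, which begins beyond the window. Skil (chr3:31095058-31122923) had 1 peak at its lower end in each of the 8 lists, and the day 9 HDAC3-YF library had a further peak 12.1 kb beyond the upper end. The score of the peak common to all was at the ceiling in ESCs, MEFs and the day 5 and day 9 libraries, and at day 13 it was 55.9 (FLAG) and 155 (HDAC3-YF).

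**Figure D2:**
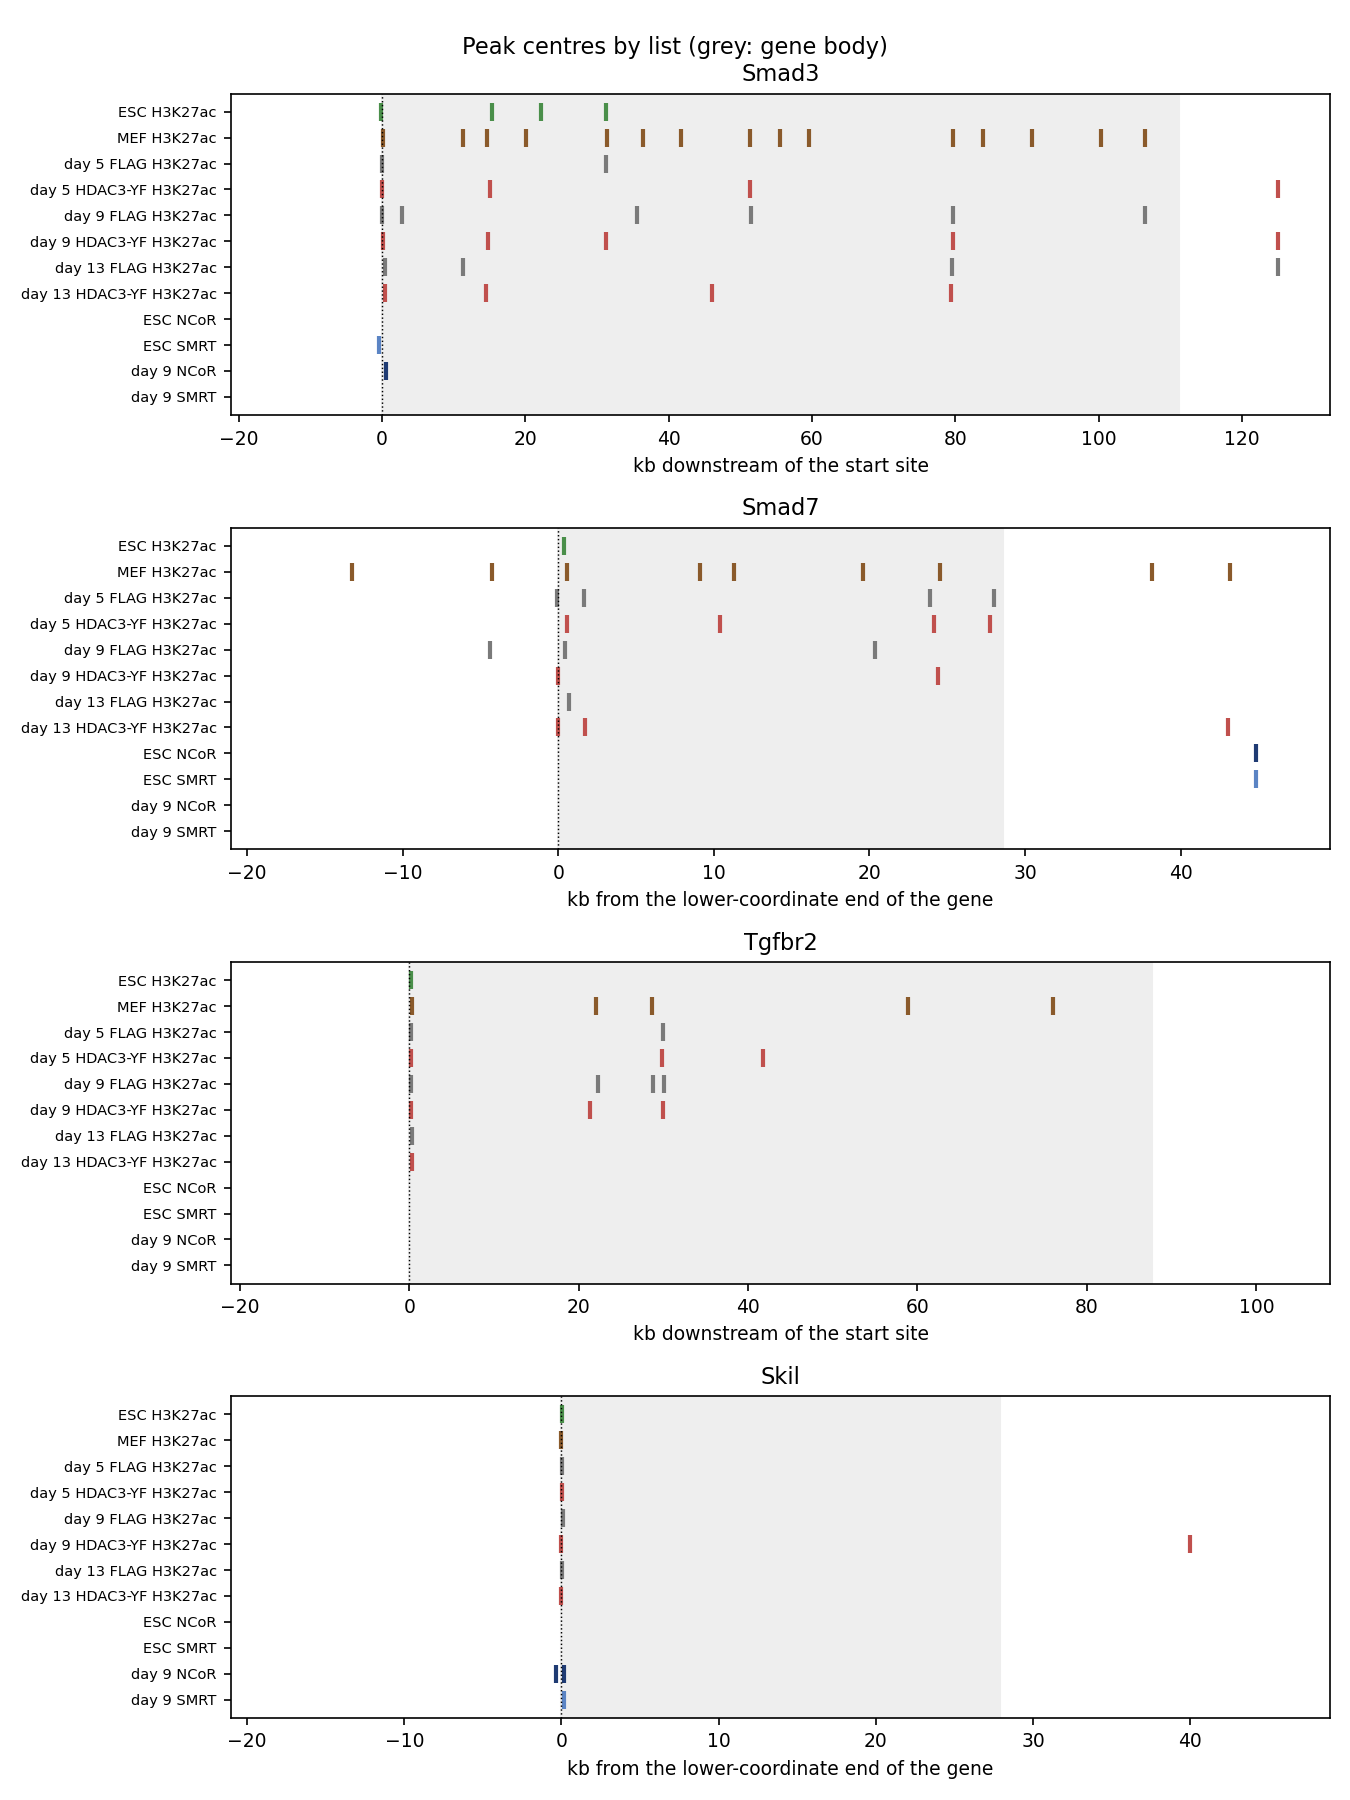
Centres of all peaks (ticks) in the windows of Smad3, Smad7, Tgfbr2 and Skil, 1 row per list and 1 library per row, against the distance in kb from the start site or, where no strand was given, from the lower-coordinate end of the gene; grey is the gene body. MEF ticks spread across Smad3 and Smad7, while the ticks at 0 kb recur in all 8 H3K27ac lists.

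At these loci the shared peaks and the MEF peaks differed in position. The share of shared and of MEF-only regions at gene ends over the genome was not counted. Whether the difference is particular to these genes is therefore not known. Of the 61 MEF peaks, 8 (13.1%) lay within 1 kb of an annotated gene end, 37 elsewhere in the gene body and 16 in the flanks. In ESCs 7 of 23 (30.4%) lay within 1 kb of an end, and in the OSKM libraries 24.2% to 30.8% did. A peak lay at an end of 8 members in MEFs, 7 in ESCs and 6 to 8 in the OSKM lists, where 48.2%, 48.6% and 40.8% to 43.9% of all genes had one, so MEFs and ESCs were also alike over all genes. Joined within 1 kb, the 10 loci held 78 clusters. Of these 19 had peaks in both ESCs and MEFs, 42 in MEFs but not ESCs, 4 in ESCs but not MEFs and 12 in OSKM cultures alone, and 1 held co-repressor peaks without H3K27ac. Of the 19 common clusters 7 lay at a gene end, and 12 were marked in all 6 OSKM libraries. An end here is an end of the annotated gene, so the cluster at the Tgfb2 start site, 3.7 kb inside the gene, was not counted as one. Of the 42 MEF clusters 1 lay at a gene end, 3 were marked in all 6 OSKM libraries and 20 in none. Of the 12 clusters of OSKM cultures alone, 8 were in 1 library only.

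The next comparison followed these loci from MEFs through the FLAG cultures. The 10 genes held 61 peaks in MEFs and then 27, 33 and 26 at the 3 days. Of the 10, 8 had fewer peaks at day 5 than in MEFs and 0 had more, where 43.3% of all genes with a peak had fewer and 10.2% had more. At 6 the count was lower by 3 or more, against 8.54% of all genes. By day 13, 7 had fewer peaks than in MEFs and 0 had more, against 43.3% and 10.9% of all genes. In the HDAC3-YF culture of that day 8 had fewer and 0 more, against 44.1% and 13.1%. The shorter lists of the OSKM libraries move with this difference. Per 10000 peaks of the list, the members held 22.9 in MEFs, 17.3, 20.1 and 16.9 in the FLAG series, and 9.02 in ESCs. With 14251 of the highest-scoring peaks taken from each list, the totals were 37 in MEFs, 25, 28 and 23 in the FLAG series, and 13 in ESCs. On either scale MEFs were highest and ESCs lowest, and the part of list length in the step from MEFs to day 5 was not tested further. From day 5 to day 13 with FLAG, 4 members had more peaks, 4 had fewer and 2 had the same number, beside 20.7% higher and 20.1% lower over all genes.

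**Figure D3:**
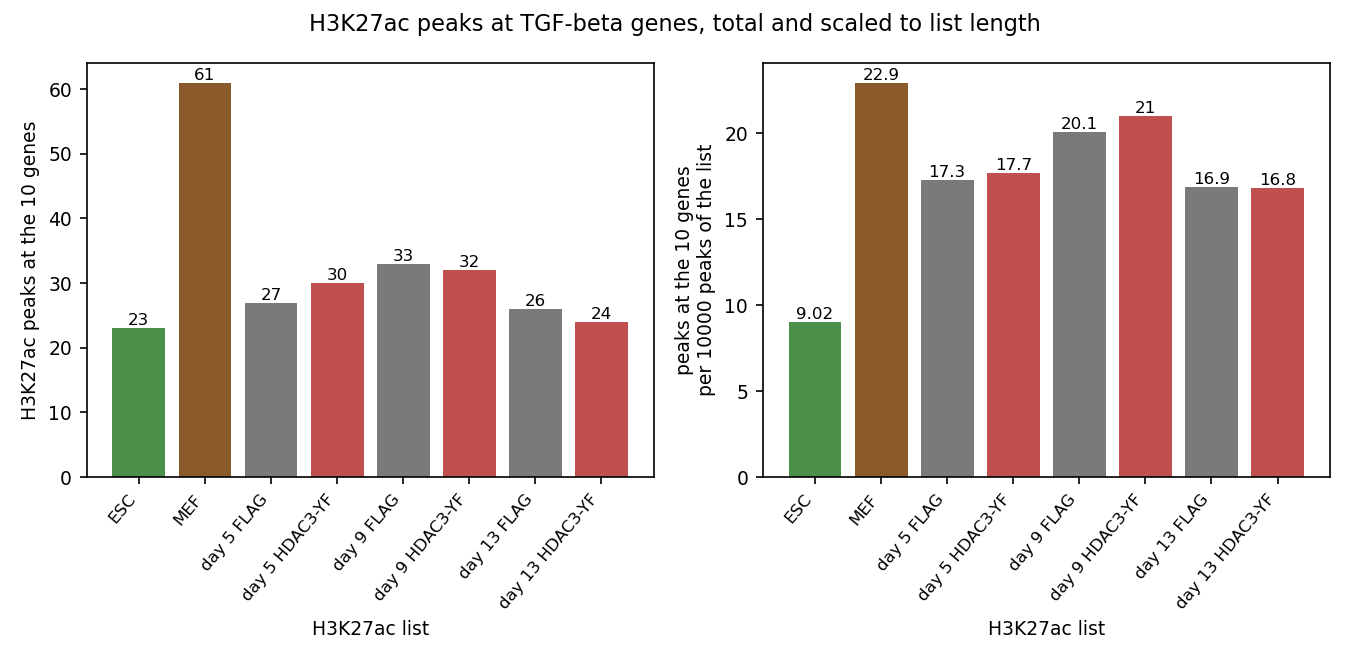
H3K27ac peaks at the 10 TGF-beta genes in each of the 8 lists (bars, 1 library each, no error), as the total (left) and per 10000 peaks of the same list (right). MEFs are highest and ESCs lowest in both panels, with 61 and 23 peaks, or 22.9 and 9.02 per 10000.

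At the level of single regions, 48 of the MEF peaks in these windows overlapped no ESC peak. Of these 48, FLAG peaks of day 5 overlapped 4 (8.33%, Wilson interval 3.29 to 19.6%), those of day 9 overlapped 11 (22.9%, 13.3 to 36.5%) and those of day 13 again 4. HDAC3-YF peaks overlapped 4, 5 (10.4%, 4.53 to 22.2%) and 4. Over all 17062 such regions of the genome the FLAG shares were 12.6%, 16.8% and 14.1%, and the HDAC3-YF shares 12.9%, 12.9% and 9.91%. With overlap by 1 bp, all of these genome shares lay inside the 95% intervals of the members. Other ways of matching gave other relations to the genome. With an overlap of 50%, HDAC3-YF at day 9 matched 2 of 54 regions (3.70%, 1.02 to 12.5%) against 13.3% in the genome, and FLAG at day 13 matched 1 of 54 (1.85%, 0.328 to 9.77%) against 13.9%. With centres within 1 kb, FLAG at day 9 matched 15 of 42 (35.7%, 23.0 to 50.8%) against 18.2%. By the overlap of 50% the same FLAG library had 9.26%, against 15.9%. The intervals cover only the counting of regions, which are not independent within a locus. Of the 48 regions 31 (64.6%, 50.4 to 76.6%) overlapped no peak of any OSKM library, against 69.6% in the genome. When a centre within 1 kb sufficed, 20 of 42 (47.6%, 33.4 to 62.3%) had none, against 69.1% in the genome. By this measure 10 of the 42 (23.8%, 13.5 to 38.5%) had peaks in FLAG libraries alone and 2 in HDAC3-YF libraries alone, against 9.42% and 4.67% in the genome. With overlap required, the counts were 7 and 3 of 48, and the share for FLAG alone, 14.6% (7.25 to 27.2%), had an interval that held the genome value of 8.76%.

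The regions with an ESC peak were few. The 10 ESC peaks without an overlapping MEF peak were overlapped by 1 to 3 FLAG peaks and 1 or 2 HDAC3-YF peaks, depending on the day. The genome shares of this class ran from 8.41% to 11.2%. Of the 6 libraries, FLAG at day 9 had the most, with 3 of 10 (30%, 10.8 to 60.3%) against 8.56% in the genome, and the other 5 had the genome share inside their intervals. Among these 3, the peaks at Tgfb2 and Smad3 lay at start sites that also had a MEF peak within 1 kb. With centres within 1 kb, 4 regions remained, and FLAG at day 9 matched 1 (25%, 4.56 to 69.9%), against 7.17% in the genome. With an overlap of 50% it matched 4 of 16 (25%, 10.2 to 49.5%), against 9.90%. A count of 0 among 10 would still allow a share of up to about 30%, taken as 3 divided by the number of regions. Differences among the 6 libraries were therefore not detectable. The 13 MEF peaks that overlapped an ESC peak were overlapped by 9, 9 and 6 FLAG peaks and by 8, 10 and 8 HDAC3-YF peaks at days 5, 9 and 13. Genome shares of this class ran from 75.5% to 81.2%. At day 13 the FLAG share of the members, 46.2% (23.2 to 70.9%), was below the 75.5% of the genome, and in the other 5 libraries the genome share lay inside the interval. With centres within 1 kb the day 13 FLAG share was 13 of 19 (68.4%, 46.0 to 84.6%), and its interval held the genome value of 80.8%. With flanks of 5 kb it was 4 of 11 (36.4%, 15.2 to 64.6%), against 75.5%.

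The last H3K27ac comparison asked whether the inactive deacetylase went with a different acetylation of these genes. The differences were small and had no common direction. At day 5 the 10 genes held 27 peaks with FLAG and 30 with HDAC3-YF, and HDAC3-YF was higher at 2 genes (Smad3 and Tgfbr2), lower at 0 and equal at 8. Over all genes 18.5% were higher and 14.4% lower. At day 9 the totals were 33 and 32, with 3 genes higher (Smad6, Ski and Skil) and 4 lower (Tgfb2, Tgfbr2, Smad3 and Smad7), beside 14.0% and 19.5% of all genes. At day 13 they were 26 and 24, with 2 higher (Smad7 and Ski) and 3 lower (Tgfb1, Tgfb2 and Tgfb3), beside 20.2% and 21.4%. The median difference was 0 on each day, both for the members and for all genes. The day 13 total turned to 1 more peak with HDAC3-YF under 3 of the 6 other ways of counting. With the days taken as pairs, the difference in total was 0 ± 2.65 peaks (SD over 3 days), and an exact test on 3 pairs cannot go below a two-sided p of 0.25.

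No member differed in the same direction at all 3 days, where 0.829% of all genes were higher with HDAC3-YF at all 3 days and 1.88% were lower. The largest difference was at Tgfb3 on day 13, where the FLAG culture had 3 peaks and the HDAC3-YF culture 0, and 1.25% of all genes were lower by 3 or more peaks on that day. The 3 FLAG peaks at Tgfb3 had scores of 17.3 or less. Only the one scoring 7.5 lay nearest to Tgfb3, and the others lay nearest to Ttll5 or Ift43. Counted by peaks nearest the member, the FLAG culture had 1 and the HDAC3-YF culture 0. In the gene body alone neither had a peak. Over the 3 days the ligand genes Tgfb2 and Tgfb3 each held 7 peaks with FLAG and 4 with HDAC3-YF, and Tgfb1 held 10 and 9. Smad6 held 8 and 10, Smad7 8 and 9, Ski 21 and 23, Smad3 12 and 13, Skil 3 and 4, and both Tgfbr1 (3) and Tgfbr2 (7) were equal. The fibroblast marker genes listed above held 15, 16 and 11 peaks in the FLAG series and 21, 10 and 9 in the HDAC3-YF series. Their part in these differences was not tested.

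**Figure D4:**
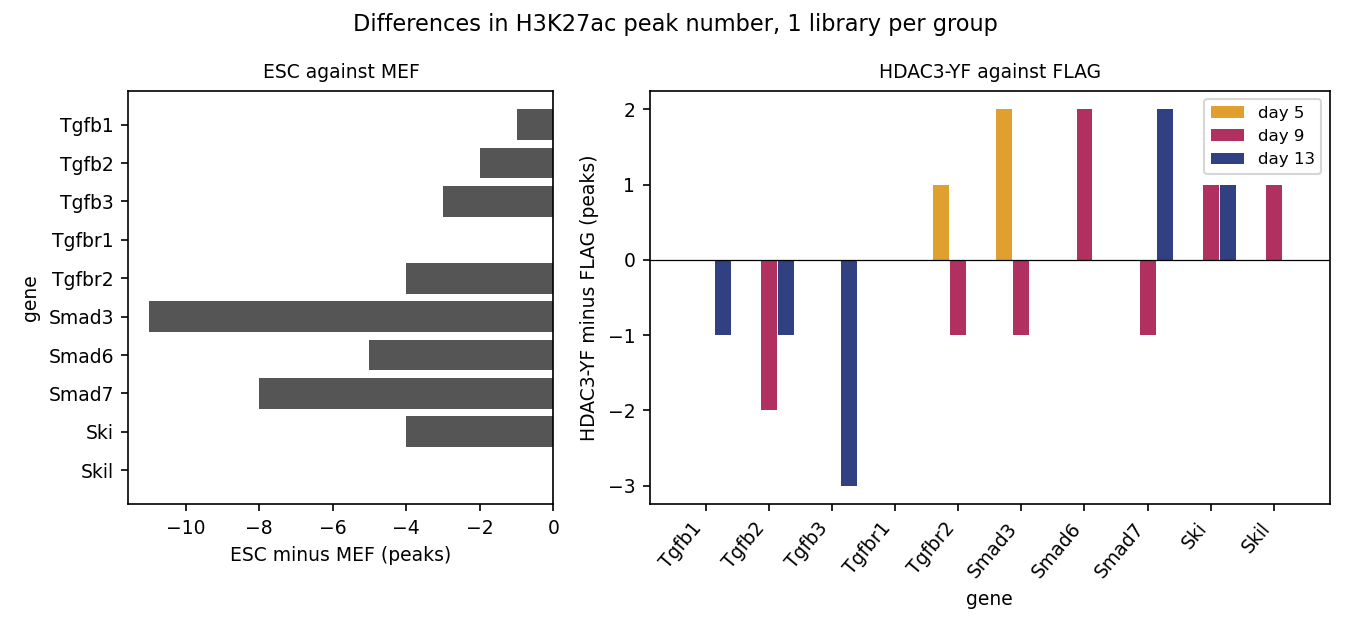
Difference in the number of H3K27ac peaks per gene between ESCs and MEFs (left, bars) and between HDAC3-YF and FLAG cultures at days 5, 9 and 13 (right, bars by day), 1 library per group and so without error. In the left panel 8 bars point to MEFs and 0 to ESCs, and in the right panel no gene has bars in the same direction on all 3 days.

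NCoR and SMRT were then located at the same genes. Of the 10 genes 4 had an NCoR or SMRT peak in the window at day 9 (Tgfb1, Tgfbr1, Smad3 and Skil), where 37.1% of all protein-coding genes had one, and 2 (Smad3 and Smad7) had one in ESCs, where 29.7% of all genes did. Both shares are near the background. The 11 intervals made 7 distinct sites, 5 at day 9 and 2 in ESCs, and no site was common to the 2 cell populations. How often sites are common to both over the genome was not counted, so this describes these few sites alone. Tgfb2, Tgfb3, Tgfbr2, Smad6 and Ski had none.

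At day 9 the sites lay at gene ends. A peak centre lay within 1 kb of an annotated end of 3 of the 10 genes, where 21.5% of all genes had such a peak. Skil had a pair of sites. NCoR alone lay at chr3:31094579-31094778, 379 bp outside the lower end of the gene, and both co-repressors lay at chr3:31095141-31095340, 183 bp inside it. At Tgfbr1 both lay at chr4:47353274-47353473, 152 bp downstream of the start site whose upstream bases are shown above. At Smad3 NCoR alone lay at chr9:63757381-63757580, 513 bp downstream of the start site, while in ESCs SMRT alone lay at chr9:63758268-63758467, 374 bp upstream of it.

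The day 9 site in the window of Tgfb1 (chr7:25680797-25680996, both co-repressors) lay 6105 bp upstream of the Tgfb1 start site and 117 bp from an end of B9d2, nearer to that gene. In ESCs a site of both co-repressors lay 16.3 kb beyond the upper end of Smad7 (chr18:75412095-75412294). It was the sole site without an H3K27ac peak within 1 kb in any list, and the nearest was a MEF peak at 1660 bp. The other 6 sites, those at Skil, Smad3, Tgfbr1 and near Tgfb1, had an H3K27ac peak centre within 1 kb in all 8 lists. The share of all co-repressor sites with such peaks was not counted, so whether this is particular to these genes is not known.

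The deposited co-repressor score is signed, has no stated scale and is shared by the NCoR and SMRT lists of a cell population, so it is not a peak height. It ran from 1.5 at the NCoR site outside Skil and 1.10 at the day 9 NCoR site of Smad3 to -1.24 at the ESC SMRT site of Smad3. The sites with both co-repressors lay between, with 0.66 at Smad7, 0.12 near Tgfb1, -0.25 at Tgfbr1 and -0.34 inside Skil. The NCoR lists held no score below -0.990 (ESCs) or -0.979 (day 9), and the SMRT lists none above 0.998 or 0.991. This order therefore follows from which list holds a site, and it adds nothing about these genes.

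A wider list of 38 pathway genes was counted in the same way. Of these 21 had more H3K27ac peaks in MEFs, 9 had more in ESCs and 8 had equal numbers, with a median of -1 peak, beside the 29.7% and 36.2% of all genes given above. Genes of ligand storage and activation leaned most to MEFs, with 9 of 10 higher there and 0 higher in ESCs. Ltbp1, whose protein tethers latent TGF-beta to the matrix, had 16 peaks in MEFs and 1 in ESCs, and Ltbp2 of the same family had 11 and 3 (the ubiquitin ligase gene Smurf1, with 9 and 1, had the same difference and follows it alphabetically). The co-receptor gene Tgfbr3 had 13 and 2, and Nedd4l, a ubiquitin ligase acting on SMADs and receptors, had 14 and 1. The opposite order was found at Tgif1, a SMAD co-repressor, with 2 peaks in MEFs and 8 in ESCs, at its relative Tgif2 with 2 and 4, and at Zfyve9, which presents SMADs to the receptor, with 2 and 4. The fourth gene that the rule took from this side, by alphabetical order among ties, was the decoy receptor gene Bambi, with 1 and 2. The transducer and receptor regulator groups were mixed, with 1 of 4 and 2 of 8 higher in MEFs.

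In the wider list the HDAC3-YF count exceeded the FLAG count at 10, 7 and 5 genes on the 3 days in turn, and was below it at 3, 8 and 13. Over all genes 18.5%, 14.0% and 20.2% were higher, and 14.4%, 19.5% and 21.4% lower. Tgfbr3 alone of the 38 had the same sign on all days, with 2, 3 and 2 peaks in the FLAG series and 0, 2 and 1 in the HDAC3-YF series. Day 9 co-repressor peaks lay within 1 kb of an end of 14 of the 38, against the 21.5% of all genes given above, including 3 of the 4 transducers, namely Smad4, the partner of SMAD3, Map3k7, the kinase TAK1, and Trim33, a ubiquitin ligase that binds SMADs. ESC co-repressor peaks lay there at 9 of the 38, where 14.2% of all genes had one. The day 9 genes also included the nuclear partners and inhibitors Tgif2, Smurf2, Wwp1 and Ppm1a and the targets Cdkn2b, Id1, Id3 and Junb, besides Ltbp1, Tgfbr3 and Tgfbrap1. The ESC genes were Ltbp1, Tgfbr3, Fkbp1a, Tgfbrap1, Zfyve9, Map3k7, Wwp1, Ppm1a and Cdkn2b.

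The genes whose counts over the 8 H3K27ac lists ran most like those of the 3 members with the most peaks were taken from all protein-coding genes with at least 10 such peaks. For Smad3 they were Glis1 (Pearson r = 0.986 over the 8 lists), Smurf1 (0.982) and Tram2 (0.980). For Ski they were Gm46294 (0.974), Frmd4a (0.960) and Peli2 (0.959). For Tgfb1 they were Gbf1, Mtmr10 and Stip1, each with r = 1 because each has exactly 1 peak fewer than Tgfb1 in every list. Each list is 1 library and the lists differ in length, so these values only describe how alike the 8 counts ran.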

How the data were processed

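The data are ChIP-seq peak lists from mouse cells, 1 library per group. Reads were aligned with Bowtie2 2.2.0 and peaks called with MACS 1.4 on mm10, per the submitters' processing notes, and 1 list per library was deposited. The settings, the read depth and the step that gave every interval 200 bp are, in the sources used here, not given. The only measurement in the deposited lists is a score per interval, which the authors do not explain. It was used to rank H3K27ac peaks within a list and, for co-repressors, as a description.

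Peaks overlapping a gene body plus 20 kb by at least 1 bp were counted with Python 3.11.15 and pandas 2.3.3 for 21883 protein-coding genes (RefSeq, GRCm38.p6), and the counting was tested on simulated peaks. Start sites and strands came from RefSeq promoter windows. Shares carry 95% Wilson intervals (statsmodels 0.14.6), which cover counting of regions only. Groups of 1 library allow no test within a day or cell type.

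The members, the wider pathway list and the marker lists were chosen with earlier results of these data known. Named from the wider list were the 4 genes highest in ESCs over MEFs, the 4 highest in MEFs, those whose HDAC3-YF count differed from FLAG in 1 direction on every day and those with a co-repressor peak within 1 kb of a gene end. The alternatives were flanks of 5 kb, the gene body alone, peaks nearest the member, the highest-scoring 50% of each H3K27ac list, 14251 peaks from each list, intervals within 1 kb merged and, for regions, other overlaps. Those that rank by score were not applied to the co-repressor lists. The maps of clusters, the regions matched in FLAG or HDAC3-YF libraries alone, and a background of the 12878 genes with 8 to 62 H3K27ac peaks over the 8 lists were added after the data were examined.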

Additional observations from a re-analysis of the deposited data

Results flagged for a closer look

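At 3 members the HDAC3-YF minus FLAG difference pointed in opposite directions on different days. The difference between days was not tested, since each is between 1 library and 1 other. For Smad3 it was 2 peaks at day 5 and -1 at day 9. For Tgfbr2 it was 1 peak at day 5 and -1 at day 9. For Smad7 it was -1 peak at day 9 and 2 at day 13. No group had enough libraries to look for a library apart from its replicates.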

How the results depend on the processing

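The count of 8 members with more H3K27ac peaks in MEFs and 0 with more in ESCs was the same in all 6 alternatives. The total ESC minus MEF difference of -38 became -23 with the highest-scoring 50% of each list and -24 with equal numbers of peaks. Among the 12878 genes with 8 to 62 peaks over the 8 lists, 28.5% had more peaks in MEFs and 36.9% more in ESCs. The 2 members with an ESC co-repressor peak were 1 with flanks of 5 kb and 0 in the gene body alone. For HDAC3-YF at day 5, the 0 members with fewer peaks became 1 in the gene body alone, with the top 50% and with merged intervals, and 2 with equal numbers, and the total difference of 3 became 1 with the top 50%. At day 9 the top 50% gave 1 member higher and 2 lower, and the total difference of -1 was -3 with flanks of 5 kb and -2 for nearest peaks and the top 50%. At day 13 the top 50% gave 1 member higher, the gene body alone and equal numbers gave 1 lower, and the total difference of -2 was -1 with flanks of 5 kb and reversed to 1 in the gene body alone, for nearest peaks and with equal numbers. These totals rest on a few peaks, and the cause was not tested.

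Among MEF-only regions, equal numbers gave FLAG shares of 25% at day 5 and 21.4% at day 13 over 28 regions, where the genome shares were also higher, at 29.2% and 30.3%. An overlap of 50% lowered them to 9.26% (FLAG) and 3.70% (HDAC3-YF) at day 9 and 1.85% (FLAG) at day 13, and flanks of 5 kb gave 2.63% for HDAC3-YF at day 13. Among ESC-only regions, equal numbers left 4 regions and gave 0% for FLAG at days 5 and 13 and for HDAC3-YF at days 9 and 13, and centres within 1 kb, also over 4 regions, gave 0% for FLAG at day 13. A count of 0 of 4 has a Wilson interval that reaches 49.0%. The labels carry no replicate numbers. Pairing by day, added after the data were examined, gave a mean HDAC3-YF minus FLAG difference of 0 peaks over the 10 genes, and a fit across all genes with the day as a block was not run. Read depth is unknown, so peaks near the calling threshold cannot be weighed.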
